A study of Mus musculus
Rattus norvegicus and Mus musculus with 6 samples.

Results

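Ligands, receptors and signal relays of the Wnt, Notch, Hedgehog, TGF-beta, FGF, VEGF, PDGF and angiopoietin families were measured in lin-/c-kit+ hematopoietic stem cells (SC) from mouse bone marrow. The members were all genes whose symbol starts with a name of these families (Wnt, Fzd, Lrp5 or Lrp6, Axin, Ctnnb, Dvl, Notch, Dll, Jag, Hes, Hey, the Hedgehog ligands, Smo, Ptch, Bmp, Tgfb, Smad, Acvr, Inh, Fgf, Vegf, Pdgf or Angpt), without Pdgfa. By this rule 56 genes were found among the 8102 genes that could be named on the arrays, and each was followed by its brightest probe. In the mouse annotation used for naming, 161 protein-coding genes have such a symbol, so 105 of them, among them Notch1, Jag1, Tgfb1, Ctnnb1 and Vegfa, were not analysed here.

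The cocultured hematopoietic SC were kept for 48 h with neonatal rat ventricular cardiomyocytes (NRVCM) of female Wistar rats, and the monocultured SC were kept for 48 h alone. All SC came from C57Bl/6 mice labelled male, whose age is not given in the sources used here. In both groups the SC carried the fluorescent tracker CFDA and were sorted on a flow cytometer after culture. Each group had 3 arrays from 3 culture experiments. Monoculture wells held more SC than coculture wells, so the density of SC and the presence of NRVCM cannot be told apart.

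Values are normalized log2 signals, so a difference of 1 is a doubling, and every difference is coculture minus monoculture. The 6 arrays had medians of 6.56. The 29 probes for reporter, vector and bacterial sequences set a background limit on each array, which lay between 6.61 and 6.71. Of all 46628 probes, 48.7% did not exceed this limit on any array. The labels were checked with genes of the sex chromosomes. Eif2s3y and Kdm5d, both on the Y chromosome, exceeded the limit on coculture array 2 alone, while Ddx3y and Uty, also on the Y chromosome, did not exceed it on any array. Xist, which is transcribed from an inactive X, had a log2 signal of 6.84 on coculture array 2 and of 8.21 to 8.80 on the other 5 arrays. On Eif2s3y, Kdm5d and Xist, 5 arrays went against the label male and coculture array 2 stood apart, so results are also given without it. Kit and Cd34 were not among the named genes, so the SC label was not checked with them. Of 10 listed progenitor markers only Lmo2 was named, with mean log2 signals of 12.22 in coculture and 12.30 in monoculture. Its log2 difference was -0.07 (limma, adjusted p = 0.81). Heart muscle markers would mark RNA of NRVCM only where mouse probes detect rat transcripts, which was not tested. Of 4 named heart muscle markers, Myh6, Myh7 and Ryr2 did not exceed the limit on any array, nor did 5 of 5 named fibroblast markers. The fourth, Mybpc3, exceeded it on all 6 arrays, with log2 signals of 6.87, 6.98 and 7.20 in coculture and 6.81, 6.84 and 6.79 in monoculture. Its groups did not overlap, and its log2 difference of 0.21 was not past the threshold (limma, adjusted p = 0.26).

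These families carry signals between neighbouring cells. Wnt proteins bind Frizzled receptors with the coreceptors Lrp5 and Lrp6, and Notch receptors are cleaved after contact with Delta-like or Jagged ligands. Hedgehog ligands bind Patched and thereby release Smoothened, while TGF-beta, activin and bone morphogenetic protein (BMP) ligands assemble type I and type II receptor kinases that phosphorylate Smad proteins. FGF, VEGF and PDGF ligands activate receptor tyrosine kinases. TGF-beta is known for holding hematopoietic SC of the bone marrow in quiescence, and Notch for its part in T cell fate.

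Of the 56 signaling genes, 3 passed the test, Tgfbr1 and Fgfr1op2 with lower and Smo with higher signal in cocultured SC. Passing required an adjusted p under 0.05 in limma, corrected over all probes, and a difference over 1.5-fold (0.585 on the log2 scale). This was 5.36% of the members, against 5.79% of all named genes. By direction, 1 member was higher (1.79%, against 2.97% of named genes) and 2 were lower (3.57%, against 2.81%). The median log2 difference of the members was -0.02, against 0.004 for all named genes, and 34 of the 56 lay within 0.1 of no difference. The groups did not overlap in 18 members (32.1%), against 28.2% of named genes. Without overlap, 4 of the 56 members had higher signal in coculture, against 1181 of 8102 named genes (14.6%). Lower signal was found in 14 of the 56, against 1100 of 8102 (13.6%). At an adjusted p under 0.05 without a fold minimum, 2 of 56 members were higher (Smo, Lrp6), against 435 of 8102 named genes (5.37%). Lower were 4 of 56 (Tgfbr1, Fgfr1op2, Tgfbrap1, Acvr1b), against 377 of 8102 (4.65%). The adjusted p of Lrp6, Tgfbrap1 and Acvr1b was each above 0.05 without some single arrays. Without coculture array 2 the same 3 genes passed together with Tgfbrap1.

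Most members gave little or no signal. Only 24 of the 56 exceeded the background limit on all arrays of at least 1 group, 18 of them on all 6 arrays, and 23 members did not exceed it on any array. A share of 52.8% of all named genes exceeded the limit in this way, against 42.9% of the members. This held for 5 of 22 ligands and for 13 of 22 receptors. No ligand passed the test, and of the ligands 4 had an unadjusted p under 0.05. A difference in a gene at background was not detectable at this signal.

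**Figure D1:**
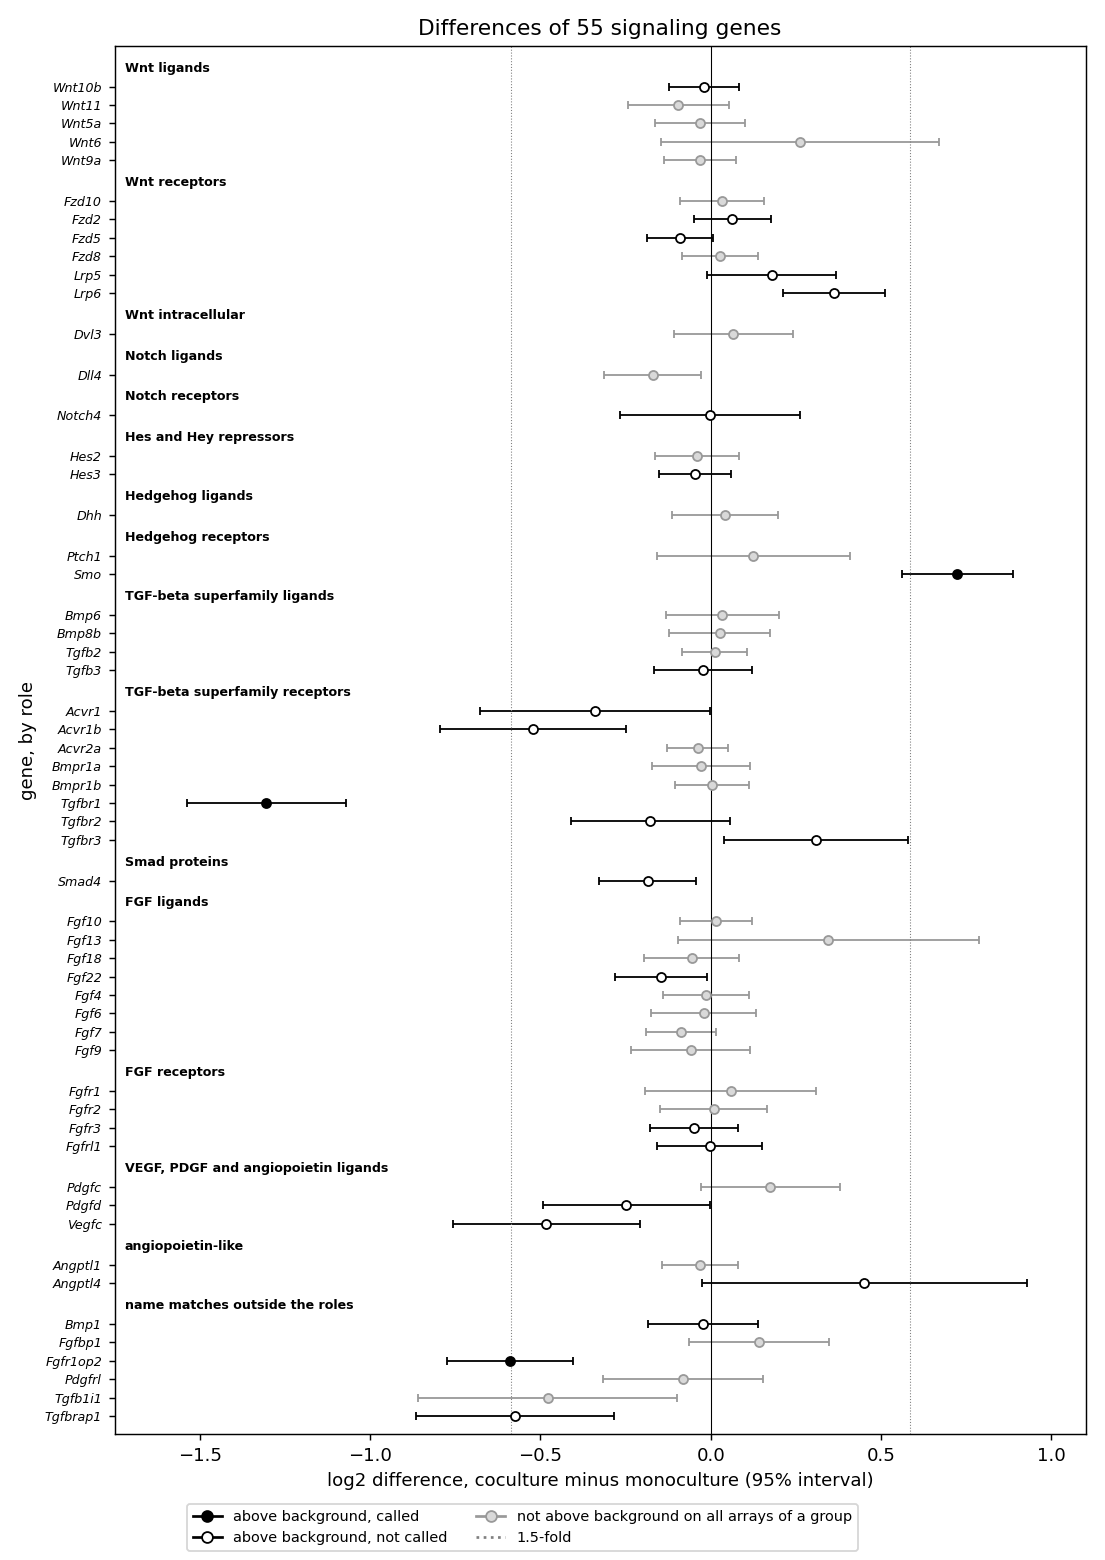
Log2 difference (coculture minus monoculture, x axis) of 55 signaling genes with its 95% confidence interval, grouped by role (y axis). Filled points passed the test, open points exceeded background on all arrays of a group without passing, grey points did not exceed it, and dotted lines mark 1.5-fold; Tgfbr1 at -1.30 and Smo at 0.72 lie farthest from 0.

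Among the 13 TGF-beta superfamily members, the receptors held the largest difference of all signaling genes. Tgfbr1 (Entrez Gene 21812) encodes the type I TGF-beta receptor, the kinase that phosphorylates Smad2 and Smad3. Its log2 signals were 10.35, 10.36 and 10.22 on the coculture arrays, against 11.45, 11.81 and 11.59 on the monoculture arrays. All 3 coculture arrays lay below all 3 monoculture arrays. The means were 10.31 ± 0.07 in coculture and 11.61 ± 0.18 in monoculture (SD, n = 3 each). The log2 difference was -1.30 (SE 0.10, 95% confidence interval -1.54 to -1.07), and Tgfbr1 signal was thus 2.47-fold lower in cocultured SC (limma, adjusted p = 0.0019). It passed under all 12 other settings tried, with log2 differences between -1.39 and -1.21, also without coculture array 2. A further Tgfbr1 probe, close to background, had log2 signals of 6.57, 6.74 and 6.61 in coculture and 6.68, 6.77 and 6.75 in monoculture. That probe did not pass the test (-0.10, SE 0.06, adjusted p = 0.51).

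The activin and BMP type I receptors did not pass. Acvr1b encodes the type I receptor of activin, and its log2 signals were 7.94, 7.84 and 8.17 in coculture and 8.36, 8.68 and 8.47 in monoculture. The groups did not overlap, and the log2 difference was -0.52 (95% confidence interval -0.79 to -0.25, adjusted p = 0.049). Without coculture array 3 the difference was -0.61 and passed, but without any 1 of the other arrays the adjusted p was 0.080 to 0.16. Acvr1 encodes a type I receptor of BMP, and it had 7.52, 7.51 and 7.39 in coculture and 7.64, 7.65 and 8.15 in monoculture. Its log2 difference of -0.34 (95% confidence interval -0.68 to -0.004) was not past the threshold after adjustment (adjusted p = 0.27), and without monoculture array 3 it was -0.17. Bmpr1a and Bmpr1b, the type I BMP receptors, and the type II receptor Acvr2a stayed at or around background, with log2 differences of -0.03, 0.004 and -0.04.

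Tgfbr2, the type II receptor that pairs with Tgfbr1, was dim. It exceeded background on 1 of 3 coculture arrays and on 3 of 3 monoculture arrays, and its log2 difference was -0.18 (95% confidence interval -0.41 to 0.06, adjusted p = 0.43). Tgfbr3, or betaglycan, which presents TGF-beta ligands to the signaling receptors, had log2 signals of 9.64, 9.63 and 10.02 in coculture and 9.42, 9.54 and 9.42 in monoculture. Every coculture array was above every monoculture array, but the difference of 0.31 (95% confidence interval 0.04 to 0.58) had an adjusted p of 0.21. Tgfbr1 and Tgfbr3 therefore had differences of opposite sign on the same arrays, of which only that of Tgfbr1 passed.

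Smad4, the partner shared by the receptor-activated Smads, gave clear signal in both groups. Its log2 signals were 10.51, 10.48 and 10.53 in coculture and 10.58, 10.72 and 10.77 in monoculture. The groups were separate, but by only -0.19 (95% confidence interval -0.33 to -0.04, adjusted p = 0.15). The 4 ligands of the superfamily, Tgfb2, Tgfb3, Bmp6 and Bmp8b, had log2 differences between -0.02 and 0.03, and of these only Tgfb3 exceeded background on all arrays of a group.

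Markers of several cell types also differed between the groups. Lyz2, Mpo, Elane and S100a9 had mean log2 signals of 14.01 to 14.61 in both groups, close to the highest array value of 14.85. They were thus among the brightest probes of the sorted cells, for which SC is the name used by the study. In bulk RNA, fewer cells of a type and less RNA per cell cannot be told apart. Of 10 listed macrophage markers, 4 were named, and Cd68 (log2 difference -2.06) and Mertk (-1.59) fell while Csf1r (-0.92) and Lyz2 (-0.14) did not pass. The summed linear signal of the 4 was 23296.8 to 27403.1 on the coculture arrays and 33613.6 to 36553.3 on the monoculture arrays. Of 6 listed megakaryocyte markers, 2 were named and both fell, Itga2b (log2 difference -2.12) and Gp1bb (-2.51), with summed signals of 233.4 to 372.6 in coculture and 1008.1 to 2414.6 in monoculture. Of 8 granulocyte markers, 4 were named and Elane rose by 0.59, while Mpo (0.12), Ltf (-0.04) and S100a9 (-0.002) did not pass. Ltf varied widely within groups, with log2 signals of 13.41, 13.57 and 12.11 in coculture and 14.16, 14.03 and 11.03 in monoculture. The summed signals of the 4 granulocyte markers were 71514.7 to 83097.6 in coculture and 61579.3 to 74560.6 in monoculture. Of 8 endothelial markers, 3 were named. Egfl7 rose (1.63, adjusted p = 0.010), while Emcn (0.12) and Pecam1 (-0.52) did not pass. The summed signals of the 3 were 824.1 to 1307.4 in coculture and 908.2 to 1070.9 in monoculture. Egfl7 was also selected by the study as upregulated on these arrays, so its direction is not independent evidence. By real-time PCR the study saw the same trend for Egfl7 without significance. The part of all these markers in the signaling results, those of Vegfc, Angptl4 and Nrp1 included, was not tested.

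**Figure D2:**
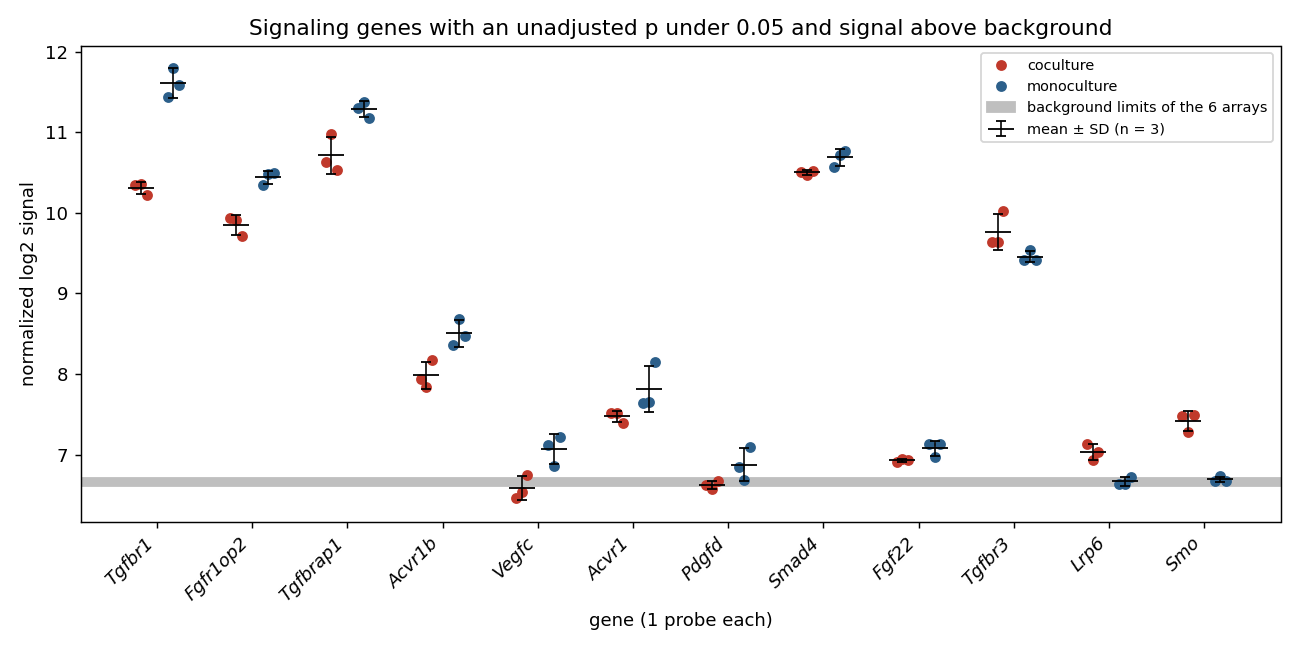
Normalized log2 signal (y axis) of the 12 signaling genes with signal above background and an unadjusted p under 0.05, with coculture arrays left of monoculture arrays, bars for mean ± SD (n = 3) and a grey band for the range of the background limits. Tgfbr1 lies at 10.22 to 10.36 in coculture and 11.45 to 11.81 in monoculture, and Smo at 7.27 to 7.49 in coculture and within the band or just above it in monoculture.

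The Hedgehog members described are Dhh, Ptch1 and Smo, and Smo was the signaling gene that rose. Smo (Entrez Gene 319757) encodes Smoothened, the membrane protein that passes the Hedgehog signal into the cell once Patched no longer holds it back. Its log2 signals were 7.48, 7.27 and 7.49 in coculture, against 6.67, 6.73 and 6.67 in monoculture. All coculture arrays lay above all monoculture arrays, of which 2 of 3 were barely above background. The means were 7.41 ± 0.12 in coculture and 6.69 ± 0.03 in monoculture (SD, n = 3 each). Smo signal was 1.65-fold higher in coculture (log2 difference 0.72, SE 0.07, 95% confidence interval 0.56 to 0.89, adjusted p = 0.0038). It passed under all 12 other settings, between 0.69 and 0.82.

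A stricter background limit of 6.89 to 7.01, which added 3 brighter probes for sequences of other species, put Smo at background in monoculture, and it was then at least 1.38-fold higher in coculture. A further Smo probe had 6.78, 6.81 and 7.11 in coculture and 6.40, 6.71 and 6.36 in monoculture. Its groups did not overlap, but the log2 difference of 0.41 (95% confidence interval 0.11 to 0.71) did not pass (adjusted p = 0.13). The study picked Smo for a list of upregulated genes from these same arrays, so its direction here is not independent evidence. The ligand Dhh did not exceed background on any array, and the receptor Ptch1, which restrains Smoothened, exceeded it on coculture array 2 alone. Their log2 differences were 0.04 for Dhh and 0.13 for Ptch1.

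None of the 12 Wnt members passed the test, and 5 of them exceeded background on all arrays of a group. Lrp6, a coreceptor that Wnt brings together with Frizzled, had log2 signals of 7.13, 6.93 and 7.03 in coculture, against 6.64, 6.63 and 6.73 in monoculture. The groups did not overlap, and the monoculture arrays lay just above their limits. The log2 difference was 0.36 (SE 0.06, 95% confidence interval 0.21 to 0.51, adjusted p = 0.024), so the whole interval stayed below 1.5-fold. The adjusted p was 0.064 without coculture array 1, 0.068 without coculture array 3, 0.095 without monoculture array 1 and 0.074 without monoculture array 2. Under the stricter limit Lrp6 was at least 1.05-fold higher in coculture.

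Lrp5, the closest relative of Lrp6, had 8.24, 8.49 and 8.38 in coculture and 8.14, 8.15 and 8.29 in monoculture. Its groups overlapped, with a log2 difference of 0.18 (95% confidence interval -0.01 to 0.37, adjusted p = 0.31). The Frizzled receptors Fzd2 and Fzd5 were just above background, with differences of 0.06 and -0.09, and Fzd8 and Fzd10 did not exceed it on any array. Of the 5 Wnt ligands, only Wnt10b exceeded background on all arrays of a group (log2 difference -0.02, 95% confidence interval -0.12 to 0.08). Wnt5a, Wnt9a and Wnt11 did not exceed it on any array. Wnt6 had 7.16, 6.77 and 6.55 in coculture and 6.49, 6.41 and 6.78 in monoculture, with overlapping groups. Dvl3, which relays the signal from Frizzled, had a difference of 0.07 near background.

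None of the 4 Notch members passed. Notch4 was the only Notch receptor named, and it had log2 signals of 7.35, 7.62 and 7.45 in coculture and 7.31, 7.44 and 7.67 in monoculture. The groups covered the same range, and the log2 difference was -0.002 (95% confidence interval -0.27 to 0.26). The Notch ligand Dll4 had 6.43, 6.52 and 6.47 in coculture, all at background, and 6.59, 6.75 and 6.59 in monoculture, 1 of them above it. Its log2 difference of -0.17 did not pass (adjusted p = 0.18). Hes2 and Hes3, of the Hes family of transcriptional repressors that includes Notch targets, had differences of -0.04 and -0.05.

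None of the 12 FGF members passed, and 7 of them did not exceed background on any array. Fgf22 was the only ligand above background on all arrays of a group, with 6.91, 6.95 and 6.93 in coculture and 7.13, 6.97 and 7.13 in monoculture. These groups did not overlap, but monoculture array 2 lay close to the coculture arrays and the log2 difference was -0.15 (95% confidence interval -0.28 to -0.01, adjusted p = 0.24). A further Fgf22 probe, at background on all arrays, had a difference of 0.05. Fgf13 belongs to the FGF homologues that stay inside the cell and bind sodium channels. It had 6.54, 6.77 and 7.30 in coculture, 2 of them above background, and 6.46, 6.52 and 6.60 in monoculture, all at background. Its mean signal was at least 1.17-fold higher in coculture, but the log2 difference of 0.35 had a 95% confidence interval of -0.10 to 0.79. Fgf13 did not pass (adjusted p = 0.42), and its groups overlapped. A further Fgf13 probe did not exceed background on any array and had a difference of 0.008.

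Fgf10, a ligand of the second heart field and of limb and lung buds, did not exceed background on any array with either of its probes. The brightest had a log2 difference of 0.02 (95% confidence interval -0.09 to 0.12). Fgf4, Fgf6, Fgf7 and Fgf18 were also at background throughout. Of the FGF receptors, Fgfr1 and Fgfr2 were at background, and Fgfr3 and the kinase-less Fgfrl1 were just above it, with log2 differences between -0.05 and 0.06 for all 4.

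None of the 5 VEGF, PDGF and angiopoietin-like members passed. Vegfc, a ligand known for the growth of lymph vessels, had log2 signals of 6.46, 6.54 and 6.75 in coculture, 1 of them above background, and 7.12, 6.86 and 7.22 in monoculture, all above it. The groups did not overlap, with a log2 difference of -0.48 (95% confidence interval -0.76 to -0.21, adjusted p = 0.063). Without monoculture array 2 the difference was -0.59 and passed, but without any 1 of the other arrays the adjusted p was 0.061 to 0.20. Pdgfd, a ligand of the PDGF receptor beta, had 6.62, 6.58 and 6.67 in coculture and 6.84, 6.69 and 7.09 in monoculture. Its difference of -0.25 was not past the threshold (adjusted p = 0.27), and that of Pdgfc, at background on all arrays, was 0.17.

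Angptl4, a secreted inhibitor of lipoprotein lipase, was clearly above background in both groups. It had 8.78, 8.17 and 8.53 in coculture and 7.78, 7.97 and 8.38 in monoculture. The difference of 0.45 had a wide interval (95% confidence interval -0.03 to 0.93, adjusted p = 0.31), and coculture array 2 lay below monoculture array 3. Angptl1 did not exceed background on any array.

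The last 6 members carry a family name but stand outside these roles. Fgfr1op2 (Entrez Gene 67529) was named for a human fusion with FGFR1 and encodes a protein of a phosphatase complex, not an FGF receptor. Its log2 signals were 9.93, 9.92 and 9.71 in coculture, against 10.35, 10.48 and 10.50 in monoculture, with no overlap. It was lower in coculture (log2 difference -0.59, SE 0.08, 95% confidence interval -0.78 to -0.40, adjusted p = 0.010), right at the required fold. It fell short of 1.5-fold without coculture array 3 (-0.52), without monoculture array 2 (-0.57), without monoculture array 3 (-0.56) and with array weights (-0.58). A further Fgfr1op2 probe above background had a difference of -0.07 (adjusted p = 0.83), and another at background had 0.07.

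Tgfbrap1, a protein that binds TGF-beta receptors and also serves in endosome tethering, had 10.63, 10.98 and 10.54 in coculture and 11.30, 11.38 and 11.19 in monoculture. The log2 difference of -0.57 (SE 0.12, 95% confidence interval -0.86 to -0.28, adjusted p = 0.044) missed 1.5-fold by a narrow margin. Tgfbrap1 passed on all 6 arrays with array weights (-0.59) or with cyclic loess normalization (-0.60). Coculture array 2 was the nearest to the monoculture arrays, and without it the difference was -0.71 and passed. Without any 1 of the other arrays the adjusted p was 0.074 to 0.15. Tgfb1i1, or Hic-5, a focal adhesion protein, did not exceed background in coculture. Its brightest probe had 6.55, 6.35 and 6.28 in coculture and 7.23, 6.71 and 6.68 in monoculture, at least 1.15-fold lower in coculture (adjusted p = 0.17). Its other probe gave at least 1.07-fold lower (adjusted p = 0.26), and monoculture array 1 was the highest with both. The procollagen protease Bmp1, the FGF carrier Fgfbp1 and Pdgfrl had differences of -0.02, 0.14 and -0.08.

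Probes of the same gene often differed in signal and in difference. Of the 56 members, 10 had more than 1 probe, with 11 further probes in all. None of the 11 passed the test, 3 of them exceeded background on all arrays of a group, and 2 had an unadjusted p under 0.05. The Smo probes had differences of the same sign, as had the Tgfb1i1 probes, while the dimmer probes of Tgfbr1 and Fgfr1op2 lay near 0.

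**Figure D3:**
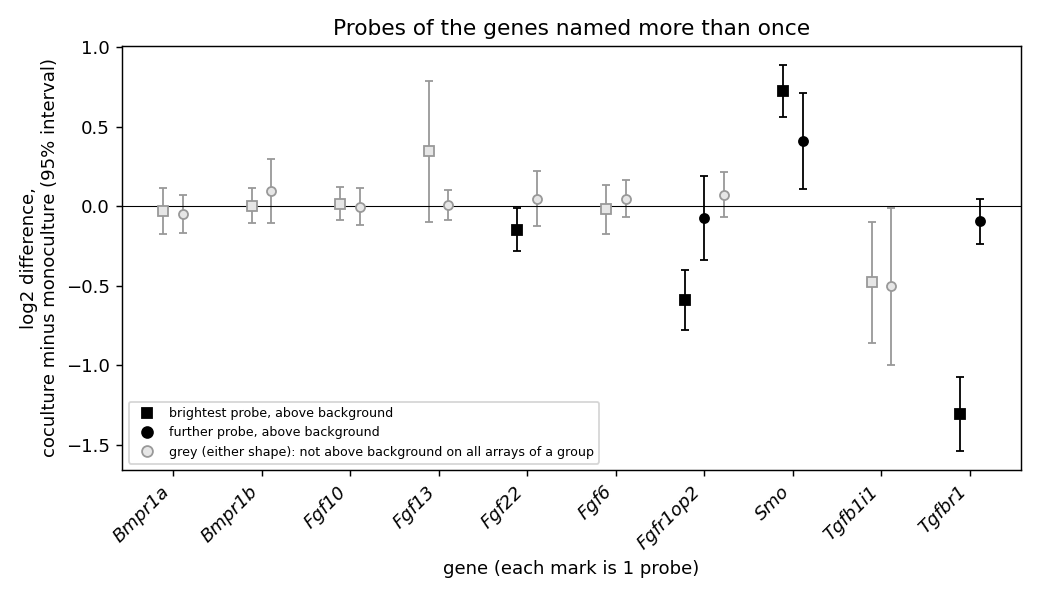
Log2 difference (coculture minus monoculture, y axis) with its 95% confidence interval for every probe of the 10 signaling genes with more than 1 probe (x axis). Squares are the brightest probes, circles the further ones, and grey marks did not exceed background on all arrays of a group; the Tgfbr1 probes lie at -1.30 and -0.10 and the Smo probes at 0.72 and 0.41.

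The same pathways were also followed through 224 listed genes outside the member families, 113 of which were named and 69 of which exceeded background on all arrays of a group. Of the 113, 3 rose and 7 fell (8.85%, against 5.79% of all named genes), and their median log2 difference was -0.02. Of the 8102 named genes, 241 rose (2.97%) and 228 fell (2.81%). The listed genes were chosen with earlier results of these data known, so these shares are no test of the pathways. For the TGF-beta and BMP pathway, 28 of 60 genes were named, and 1 rose and 2 fell. Id3, an inhibitor of helix-loop-helix factors and a BMP target, had log2 signals of 7.20, 7.32 and 7.64 in coculture, against 9.50, 9.83 and 9.53 in monoculture. It was 4.71-fold lower in coculture (log2 difference -2.23, SE 0.14, adjusted p = 0.0012), with a wide gap between the groups. Ltbp2, of the family of latent TGF-beta binding proteins, had 6.52, 6.50 and 6.43 in coculture, all at background, and 7.65, 7.82 and 7.73 in monoculture. It was at least 2.09-fold lower in coculture (adjusted p = 0.0006), or at least 1.73-fold under the stricter limit.

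Thbs1, or thrombospondin 1, which can activate latent TGF-beta and is abundant in megakaryocytes, rose. It had 9.08, 8.46 and 8.53 in coculture and 7.09, 7.82 and 7.34 in monoculture (log2 difference 1.27, SE 0.23, adjusted p = 0.027). The groups did not overlap. The call was lost without coculture array 1 (adjusted p = 0.070), coculture array 3 (0.059), monoculture array 1 (0.091) or monoculture array 3 (0.078). Thbs1, too, was in the study's list of upregulated genes from these arrays, so its direction is not independent evidence.

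For the VEGF, PDGF and angiopoietin pathway, 6 of 19 genes were named and 1 fell. This was Nrp1, a coreceptor of VEGF and of semaphorins, which had 9.72, 9.996 and 9.47 in coculture, against 11.44, 11.56 and 11.73 in monoculture. It was 3.60-fold lower in coculture (log2 difference -1.85, SE 0.14, adjusted p = 0.0020), the groups were far apart, and its further probe also passed (-1.66, adjusted p = 0.0043).

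For the Wnt pathway, 33 of 62 genes were named, and 2 rose and 2 fell. Celsr1, a cadherin of planar cell polarity, had 7.76, 7.67 and 7.86 in coculture and 6.88, 6.98 and 7.25 in monoculture (log2 difference 0.73, SE 0.10, adjusted p = 0.014). Csnk1d, a casein kinase that phosphorylates Dishevelled and many other proteins, had 10.79, 11.22 and 10.98 in coculture and 10.15, 10.33 and 10.18 in monoculture (0.78, SE 0.11, adjusted p = 0.015). Its further probe passed as well (0.71, adjusted p = 0.042). Ccnd1, the cell cycle gene cyclin D1 and a Wnt target in other tissues, had 8.43, 8.46 and 9.10 in coculture and 9.94, 10.33 and 9.60 in monoculture. Its log2 difference of -1.30 (SE 0.24, adjusted p = 0.030) was lost without coculture array 1 (adjusted p = 0.10), coculture array 2 (0.075), monoculture array 1 (0.10) or monoculture array 2 (0.069), and its 2 further probes had differences of -0.18 and -0.06. Nlk, a kinase that acts on the Tcf and Lef factors, had 9.12, 8.93 and 8.86 in coculture and 9.67, 9.48 and 9.57 in monoculture (-0.60, SE 0.08, adjusted p = 0.012). It fell short of 1.5-fold without coculture array 2 (-0.58), coculture array 3 (-0.55) or monoculture array 1 (-0.56), and its further, dimmer probe had -0.07. In all 4 genes the groups did not overlap.

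For the Notch pathway, 29 of 40 genes were named and 1 fell. Maml2, a coactivator that joins the cleaved Notch receptor on DNA, had 7.08, 7.21 and 7.0 in coculture, against 7.85, 8.02 and 8.27 in monoculture (log2 difference -0.95, SE 0.11, adjusted p = 0.0082). For the Hedgehog pathway, 10 of 19 were named and 1 fell. Disp1, which releases lipid-modified Hedgehog ligands from the cells that make them, had 7.49, 7.73 and 7.61 in coculture, against 8.12, 8.32 and 8.45 in monoculture (-0.69, SE 0.10, adjusted p = 0.015). All coculture arrays were below all monoculture arrays in both genes. For the FGF pathway, 7 of 24 were named and none passed, while 1 had an unadjusted p under 0.05. The calls of Celsr1, Csnk1d and Disp1 were each lost without 1 array, which was coculture array 1 for Celsr1 (adjusted p = 0.055) and Disp1 (0.053) and monoculture array 1 for Csnk1d (0.064). Those of Id3, Ltbp2, Nrp1 and Maml2 were kept under all 12 other settings.

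**Figure D4:**
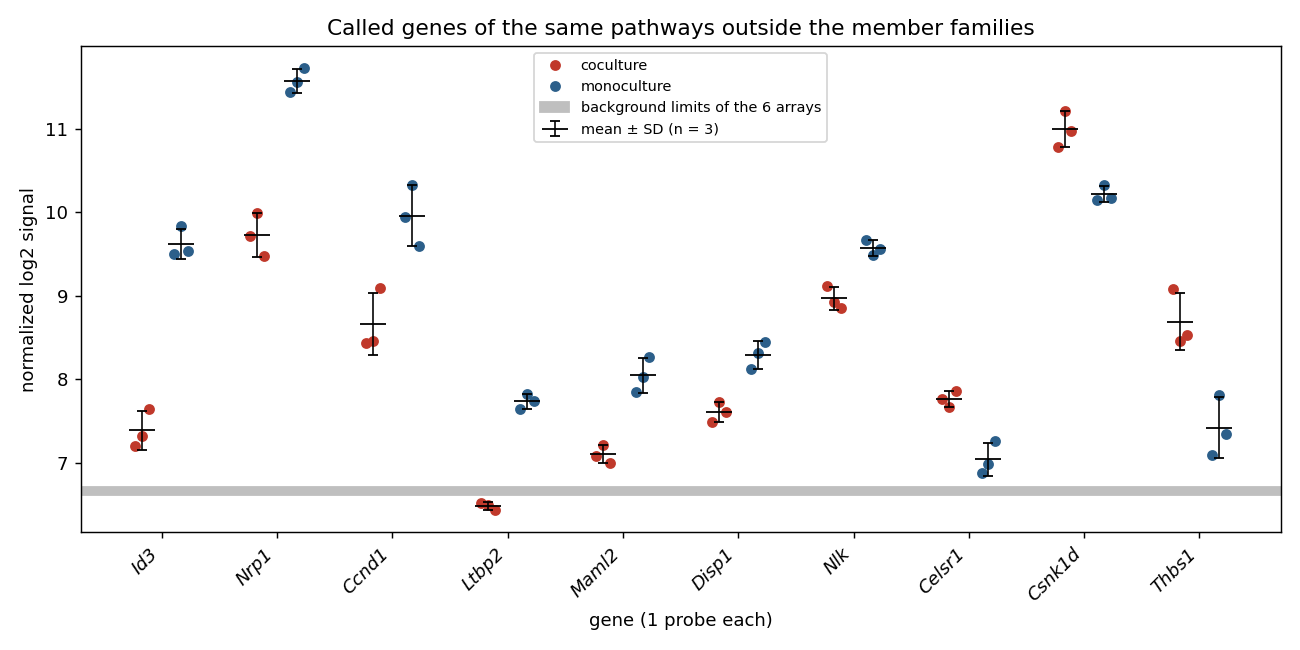
Normalized log2 signal (y axis) of the 10 pathway genes outside the member families that passed the test, with coculture arrays left of monoculture arrays, bars for mean ± SD (n = 3) and a grey band for the range of the background limits. The coculture arrays lie below the monoculture arrays for Id3, Nrp1, Ccnd1, Ltbp2, Maml2, Disp1 and Nlk and above them for Celsr1, Csnk1d and Thbs1.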

How the data were processed

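RNA of sorted hematopoietic SC was hybridized to Illumina mouse bead arrays (3 coculture, 3 monoculture). Outlier beads were removed by the authors before probe means were taken, and a normalization that the study calls quartile followed. The authors' deposited table holds log2 values from 5.81 to 14.85, with the same lowest and highest value on all 6 arrays, and no gene symbols. Of 46628 probes, 9796 carry an Entrez Gene ID in their name that matched a gene of the mouse RefSeq table, which gave 8102 genes; 36832 probes stayed unnamed here. The 12 columns of the table before normalization were not used. No genome build is named, so no positions are given.

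The difference of the group means was tested on all probes with limma 3.58.1 (R 4.3.3; lmFit, eBayes), which follows the study's methods, with Benjamini-Hochberg adjustment. A gene with several probes was represented by the brightest. Where no array of a group exceeded its limit, the fold is a bound: the brighter group's mean against the mean of the limits, or of the dim probe's own value where higher. Named were all members that passed, those above background with an unadjusted p under 0.05, and 21 central genes of a list of 52; other members are named for their role, and pathway genes where they passed. Members and lists were chosen with earlier results of these data known. The alternatives left out each array in turn, or changed the background correction (normexp, offset 50), normalization (cyclic loess), filter on dim probes, variance model, array weights, replicate block, fold minimum or choice of probe. The test was checked on simulated data with changes only in probes well above background, so that check did not cover dim members. With 3 arrays per group, their number limits the precision; each came from its own culture experiment, but animals are not identified. The values of 1 member are not reported here, though the counts include it.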

Additional observations from a re-analysis of the deposited data

How the results depend on the processing

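The counts of signaling genes that passed kept within 1.5 times under the other normalization, background correction, filter on dim probes, variance model, array weights and choice of probe. With no fold minimum, 6 members passed, 2 higher and 4 lower. Leaving out 1 array at a time gave 2 to 4 members, with 1 higher and 1 to 3 lower, and 6 to 10 of the other pathway genes, 6 of them both without coculture array 1 and without monoculture array 1. The number of all probes called was 1704, but 1073 without coculture array 1 and 1021 without monoculture array 1. Of 410 values of single genes under other settings, 385 kept their side of the call, 20 were lost, 5 were gained and 0 changed sign among called genes. With the replicate number as a block the same 3 members and 8 other pathway genes passed, and 1181 of all probes; of the genes named, Ccnd1 (adjusted p = 0.11) and Thbs1 (adjusted p = 0.10) did not. The block also put the adjusted p of Lrp6 at 0.066 and of Acvr1b at 0.12, and that of Acvr1b was 0.051 with array weights and 0.053 with the trend and robust variance model. The deviations of same-numbered arrays correlated at -0.11, -0.11 and -0.10, and those of the other pairs at 0.02 to 0.09. The main test therefore did not pair the arrays by number. Whether same-numbered arrays shared an experiment is not settled by these correlations. Under the stricter background limit, chosen after seeing the data, 12 in place of 24 members exceeded background on all arrays of a group. The cause of these changes was not tested. Signal over background limits most members.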
